A study of Mus musculus with 8 samples.

Results

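Transcripts of red blood cells and their precursors were followed in B cells sorted from mouse spleen. Of the 8 genes named, Alas2, Slc4a1, Car2, Ahsp, Epb42, Ermap, Klf1 and Gata1, 7 were measured, among 19937 genes on 21640 probe sets, and Ahsp was not analysed here. A gene was taken from the probe set that the platform annotation gives to it alone, and from the brightest of these where there were several. Each of the 7 measured genes had 1 such probe set, so brightness decided nothing. The list was chosen on earlier results of these data, made from the same log2 levels, so the levels of the genes and their likeness to each other are given as a description.

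The wild-type group, titled Control, was 4 samples of CD22+B220+ cells from spleens of adult CBAxC57BL/6J mice. The Sca1-HGAL group was 4 samples of the same kind of cells from adult mice of that strain that carried HGAL, a gene of human germinal centre B cells also called GCET2, under the Sca1 (Ly-6E.1) promoter. The study describes the mice as transgenic and the Control mice as their littermates, while the genotype label reads Sca1-HGAL knock-in. That promoter is active in blood stem and progenitor cells, so it does not limit HGAL to B cells. RNA was hybridised to GeneChip Mouse Gene 1.0 ST arrays, 1 array per sample, and nothing in the labels says whether each sample was a separate mouse. Tests therefore measure the spread between samples, which may be technical.

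Levels are log2 values of the deposited intensity, and they have no detection call, so a low level cannot be told from background. The median intensity of an array lay between 145.2 and 151.4. With 4 arrays a group, the number of arrays sets the precision. The sorted cells carried B-cell transcripts on every array, with a mean log2 level of 15 B-cell genes between 12.549 and 12.626 in Control and between 12.438 and 12.547 in Sca1-HGAL. Every Sca1-HGAL array thus lay slightly below every Control array. Of the 15 genes 3 were higher in Sca1-HGAL and 12 lower, where 56.1% of all probe sets were higher. The difference between these means was not tested. Control replicates 2 and 4 had Xist, which coats the silenced X chromosome of female cells, at log2 12.17 and 12.18, against 5.28 to 5.65 on the other 6 arrays. The Y-linked genes Eif2s3y, Uty and Kdm5d were low on these arrays alone. Eif2s3y was at 4.22 and 3.96 there, against 10.21 to 10.61 on the other 6. By these transcripts Control held both female and male samples and Sca1-HGAL male samples only, so sex was unbalanced between the groups.

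Red cells arise from progenitors under the transcription factors GATA1 and KLF1, which together switch on the genes for haemoglobin, haem and the red cell membrane. Maturing erythroblasts lose the nucleus and become reticulocytes, which have no new transcription but still hold messenger RNA. The mouse spleen makes red cells as well as filtering them, so a spleen suspension contains erythroblasts, reticulocytes and red cells beside lymphocytes. CD22 and B220 are B-cell proteins and are not markers of red cells.

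The stretch just before the transcription start is shown for 2 of the 4 genes that varied most between arrays, Alas2 and Epb42, and for the 2 transcription factor genes, which varied least. The sequences are from RefSeq on GRCm38.p6, which held windows for 5 of the 7 genes, and each gives the 250 bases upstream of the start, 5′ to 3′ on the strand of the gene. Capitals mark matches on either strand to a GATA word, which is AGATAA or TGATAA where it ends in A and AGATAG or TGATAG where it ends in G, or to the CACC word CCNCNCCC that KLF-type factors can bind, with overlapping matches joined. The windows are chrX:150547167-150547416 on the plus strand for Alas2, chr2:121036878-121037127 on the minus strand for Epb42, chr8:84901732-84901981 on the plus strand for Klf1 and chrX:7967911-7968160 on the minus strand for Gata1.
Alas2: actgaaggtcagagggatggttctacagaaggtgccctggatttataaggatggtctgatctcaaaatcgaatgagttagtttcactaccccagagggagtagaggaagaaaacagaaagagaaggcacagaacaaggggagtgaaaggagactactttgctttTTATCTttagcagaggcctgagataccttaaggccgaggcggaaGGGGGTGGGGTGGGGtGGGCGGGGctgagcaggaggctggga
Epb42: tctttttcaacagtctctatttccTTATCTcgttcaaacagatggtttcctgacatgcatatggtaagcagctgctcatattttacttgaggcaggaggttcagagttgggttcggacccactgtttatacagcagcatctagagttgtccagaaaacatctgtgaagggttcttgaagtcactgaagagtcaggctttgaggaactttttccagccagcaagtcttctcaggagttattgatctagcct
Klf1: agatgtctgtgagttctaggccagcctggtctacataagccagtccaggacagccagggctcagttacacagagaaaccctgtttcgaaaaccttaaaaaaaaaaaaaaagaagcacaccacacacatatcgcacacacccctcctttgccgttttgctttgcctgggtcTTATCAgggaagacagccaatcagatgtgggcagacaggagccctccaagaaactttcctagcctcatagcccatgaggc
Gata1: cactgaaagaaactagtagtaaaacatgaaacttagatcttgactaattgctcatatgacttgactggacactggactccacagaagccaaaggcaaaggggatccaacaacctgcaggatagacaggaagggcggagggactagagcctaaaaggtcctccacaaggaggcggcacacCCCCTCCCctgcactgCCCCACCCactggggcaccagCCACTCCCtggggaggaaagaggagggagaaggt

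A GATA word stood in 4 of the 5 windows, those of Alas2, Epb42, Ermap and Klf1, with 1 match each, and in 26.5% of all 32851 windows of this length. It lay 81 to 86 bases before the start in Alas2, 75 to 80 in Klf1, 62 to 67 in Ermap and 221 to 226 in Epb42. The CACC word stood in 2 of the 5 windows, with 4 matches in Alas2, some of them overlapping, and 3 in Gata1, and in 45.9% of all windows. The matches are a description of these letters. Of the 2 transcription factor genes, Klf1 held a GATA word and Gata1 did not.

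Alas2 encodes the erythroid form of 5-aminolevulinate synthase, the enzyme that opens haem synthesis. Its log2 level was 10.78, 10.31, 9.43 and 11.997 in Control replicates 1 to 4 and 11.74, 11.25, 11.26 and 11.79 in Sca1-HGAL replicates 1 to 4. Control replicate 4 was the highest of the 8 arrays and Control replicate 3 the lowest, a 5.92-fold range of intensity, and all 4 Sca1-HGAL arrays lay above the other 3 Control arrays. The groups overlapped through Control replicate 4 alone. The means were 10.63 ± 1.07 (SD, n = 4) in Control and 11.51 ± 0.29 (SD, n = 4) in Sca1-HGAL, a log2 difference of 0.88 (SE 0.43, 95% interval -0.09 to 1.84, limma adjusted p = 0.559). The difference did not pass the test, and its interval runs from 0.942-fold to 3.59-fold of the Control level. Without Control replicate 4 the difference was 1.33 (limma adjusted p = 0.245), and without Control replicate 3 it was 0.48 (adjusted p = 0.794).

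Slc4a1 encodes band 3, the anion exchanger that carries bicarbonate and chloride across the red cell membrane and anchors its skeleton. Its log2 level was 8.69, 9.05, 9.14 and 10.83 in Control replicates 1 to 4 and 9.45, 8.91, 9.28 and 9.28 in Sca1-HGAL. Control replicate 4 stood well above the other 7 arrays, which spanned 8.69 to 9.45 in both groups together. The means were 9.43 ± 0.95 (SD, n = 4) and 9.23 ± 0.23 (SD, n = 4), and the difference of -0.20 (SE 0.38, limma adjusted p = 0.918) turned to 0.27 without Control replicate 4.

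Epb42 encodes protein 4.2, which ties band 3 to the membrane skeleton. Its log2 level was 6.43, 6.54, 6.66 and 7.79 in Control and 6.79, 6.30, 6.52 and 6.61 in Sca1-HGAL. The order of the arrays resembled that of Slc4a1, with Control replicate 4 highest and Sca1-HGAL replicate 1 next. The difference was -0.30 (SE 0.26, 95% interval -0.89 to 0.28, limma adjusted p = 0.773) and 0.012 without Control replicate 4.

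Car2 encodes carbonic anhydrase II, a cytosolic enzyme that interconverts carbon dioxide and bicarbonate in red cells and in several other cell types. Its log2 level was 9.47, 9.96, 9.60 and 10.85 in Control and 9.48, 9.15, 9.94 and 9.93 in Sca1-HGAL. Control replicate 4 was again the highest and Sca1-HGAL replicate 2 the lowest. The difference was -0.35 (SE 0.29, 95% interval -0.99 to 0.30, limma adjusted p = 0.757) and -0.05 without Control replicate 4.

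Ermap, which encodes an immunoglobulin-like protein of the red cell membrane that carries the Scianna blood group in humans, spanned 0.44 over the 8 arrays. Its log2 level ran from 7.28 to 7.69 in Control and from 7.43 to 7.71 in Sca1-HGAL, with a difference of 0.10 (SE 0.10, limma adjusted p = 0.805). Sca1-HGAL replicate 4 was highest and Control replicate 1 lowest. Control replicate 4, at 7.66, was within the range of the other arrays.

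The transcription factor genes had the smallest ranges of the 7. Klf1, whose product activates the adult beta-globin gene and many red cell genes, was at 6.28, 6.47, 6.62 and 6.54 in Control and 6.54, 6.36, 6.42 and 6.35 in Sca1-HGAL on the log2 scale. Gata1, whose product also acts in platelet precursors, mast cells and eosinophils, was at 5.98, 6.00, 5.97 and 6.03 in Control and 6.00, 6.07, 6.20 and 5.92 in Sca1-HGAL. The differences were -0.06 (95% interval -0.24 to 0.12) for Klf1 and 0.05 (95% interval -0.10 to 0.21) for Gata1, at limma adjusted p = 0.867 and 0.858. Control replicate 4, the array with the highest Slc4a1, had levels of both within the range of the other arrays. Gata1 had a mean over the arrays of 6.02, near the low level under which dim probe sets were left out in an alternative, so absence of the transcript and a steady low level cannot be told apart.

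**Figure D1:**
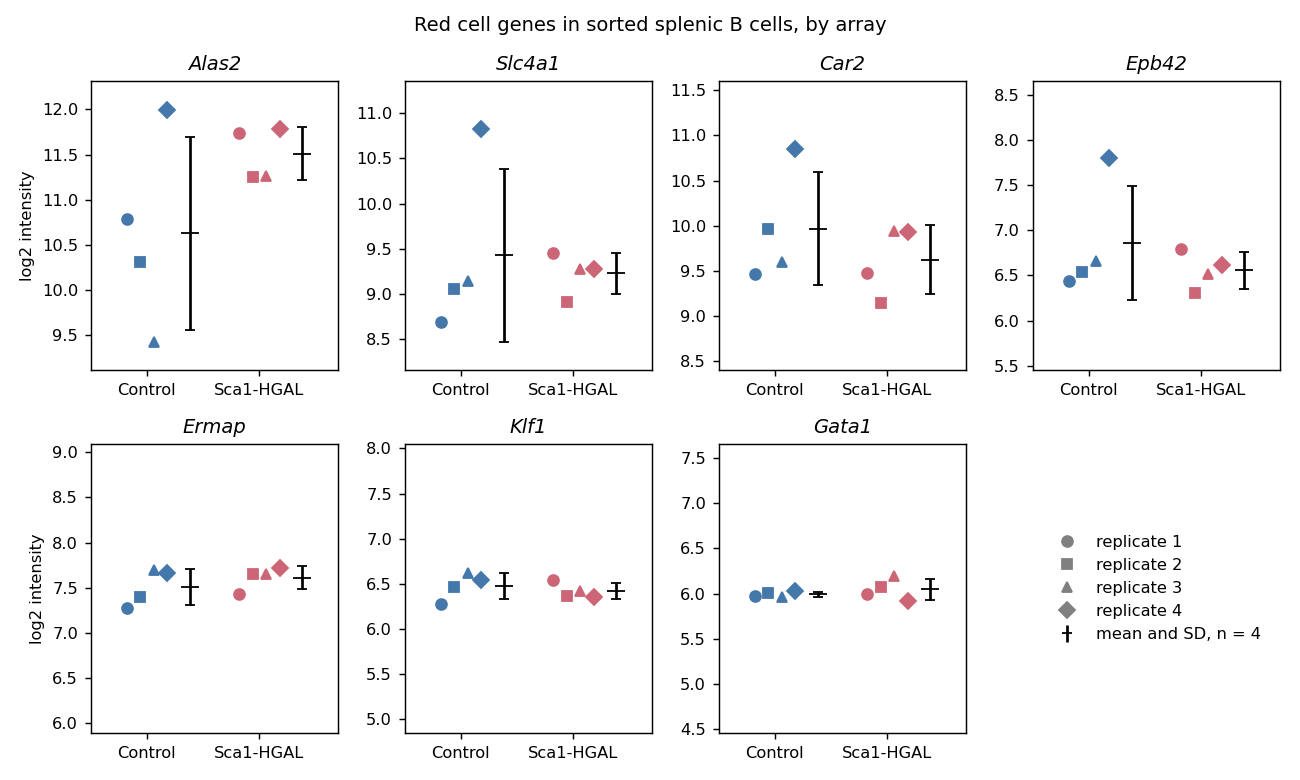
Log2 intensity (vertical axis, each panel spanning the same 3.2 log2 units) of the 7 measured red cell genes on 4 Control and 4 Sca1-HGAL arrays, with the mean and SD beside each group and a symbol for each replicate number. Control replicate 4 is the highest array for Alas2, Slc4a1, Car2 and Epb42, and Ermap, Klf1 and Gata1 span 0.44, 0.34 and 0.28 over the 8 arrays.

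None of the 7 genes passed limma at an adjusted p under 0.05, where 0.00462% of all probe sets did, and 0 had an unadjusted p under 0.05, where 9.59% of all probe sets did, 5.53% higher and 4.06% lower in Sca1-HGAL. The groups overlapped for all 7, while for 5.45% of all probe sets they did not. The difference was above 0 for 3 of the 7 and below 0 for 4, with a median of -0.06, against 56.1% of all probe sets above 0 and a median of 0.015. Without Control replicate 4, 5 of the 7 were above 0 and the median was 0.06. A change in the number of red cells and a change in the RNA of each would act alike on the array values, so these data cannot tell them apart. Which cells held these transcripts was not tested.

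**Figure D2:**
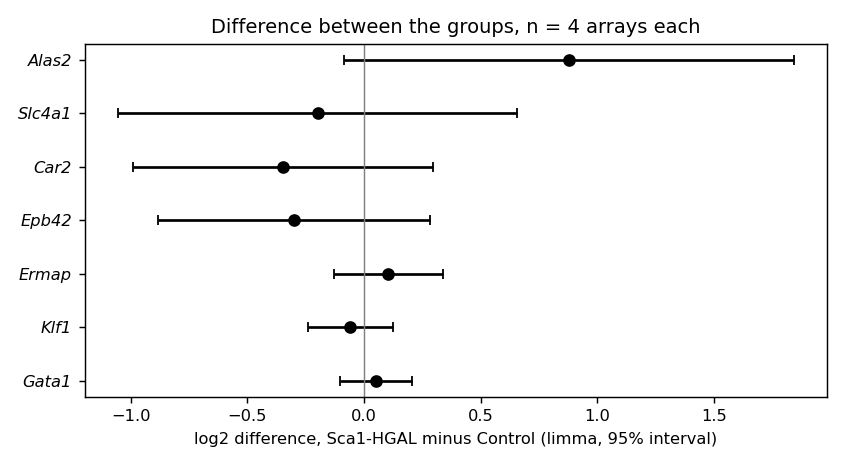
Log2 difference between the groups, Sca1-HGAL minus Control, from limma with its 95% interval, for the 7 genes with 4 arrays in each group. Every interval contains 0, and that of Alas2, from -0.09 to 1.84, is the widest.

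The spread between arrays of one group set 4 of the genes apart from the other 3. The SD within groups was 0.78 for Alas2, 0.69 for Slc4a1, 0.52 for Car2 and 0.47 for Epb42 on the log2 scale, against a median of 0.115 over all probe sets tested. It was larger than that of 99.7%, 99.6%, 99.0% and 98.7% of probe sets. For Ermap, Klf1 and Gata1 it was 0.17, 0.12 and 0.09, larger than that of 79.6%, 53.3% and 27.0% of probe sets, so that Ermap too varied more than most. The highest array held 4.41 times the intensity of the lowest for Slc4a1, 3.26 times for Car2 and 2.81 times for Epb42, but 1.36 times for Ermap, 1.26 times for Klf1 and 1.22 times for Gata1. In all 4 variable genes the SD was larger in the Control group. It was 1.07 in Control against 0.29 in Sca1-HGAL for Alas2, 0.95 against 0.23 for Slc4a1, 0.63 against 0.20 for Epb42 and 0.63 against 0.38 for Car2. The Control SD includes Control replicate 4, the highest array for all 4, and was not computed without it. The other 3 Control arrays spanned 6.433 to 6.662 for Epb42, against 6.305 to 6.795 in Sca1-HGAL, but 9.431 to 10.784 for Alas2, against 11.252 to 11.785. A larger Control SD was not particular to these 4 genes. It was 0.20 against 0.12 for Ermap and 0.14 against 0.09 for Klf1, but 0.03 against 0.12 for Gata1. These differences in spread were not tested.

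Over the 8 arrays, 18 of the 21 pairs of genes had a positive Pearson correlation, with a median of 0.29, and 17 were positive without Control replicate 4, with a median of 0.14. Within the 4 Control arrays 19 were positive, with a median of 0.74, and within the 4 Sca1-HGAL arrays 13, with a median of 0.07. With the group means subtracted the median was 0.43. Correlations over 4 arrays are imprecise, and the difference between the groups was not tested. All pairs share the same 8 arrays and their normalisation. Slc4a1 and Epb42, whose products bind each other, varied most alike, with r = 0.97 and Spearman's rho = 0.81, and with r = 0.78 and rho = 0.71 on the 7 arrays without Control replicate 4. Their log2 levels differed by 2.60 to 2.76 on the 4 Sca1-HGAL arrays and by 2.25 to 3.03 on the Control arrays. Slc4a1 and Car2 had r = 0.86, which was 0.42 without that array, and Car2 and Epb42 had 0.85 and 0.34. These likenesses therefore rest largely on Control replicate 4. Gata1 had correlations between -0.07 and 0.18 with the other 6 genes over the 8 arrays. Within Control they ran from 0.16 with Klf1 to 0.94 with Car2, and within Sca1-HGAL from -0.86 with Alas2 to 0.07 with Ermap. The Control values of Gata1 spanned only 5.97 to 6.03.

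Alas2 and Slc4a1 had r = 0.52 and rho = 0.71 over the 8 arrays, and r = 0.35 and rho = 0.57 without Control replicate 4. Alas2 and Epb42 had r = 0.42 and rho = 0.43 over the 8 arrays, and r = 0.02 and rho = 0.14 without that array. With the group means subtracted and all 8 arrays kept, r was 0.73 for Alas2 with Slc4a1 and 0.77 for Alas2 with Epb42. The correlation of Alas2 with both membrane genes was thus higher within the groups than over all 8 arrays. Within each array the log2 level of Alas2 exceeded that of Slc4a1 by 2.10, 1.26, 0.29 and 1.17 in Control and by 2.29, 2.35, 1.98 and 2.51 in Sca1-HGAL. All but 1 of the Sca1-HGAL arrays lay above every Control array, Sca1-HGAL replicate 3 being below Control replicate 1. Against Epb42, Alas2 was higher by 4.35, 3.77, 2.77 and 4.20 in Control and by 4.94, 4.95, 4.74 and 5.17 in Sca1-HGAL, so that the groups did not overlap. Against Car2 it was higher by a mean of 0.66 ± 0.70 (SD, n = 4) in Control and 1.89 ± 0.41 (SD, n = 4) in Sca1-HGAL, with the lowest Sca1-HGAL array and the highest Control array both at 1.32. Against Ermap, Klf1 and Gata1 the groups overlapped, and 0 Sca1-HGAL arrays lay above Control replicate 4, at 4.33, 5.46 and 5.97. Of all 21 differences between a pair of the genes, the groups did not overlap for 2, those of Alas2 with Car2 and with Epb42. With Car2 this rests on 1.320 against 1.318 at the nearest arrays. For single probe sets the share without overlap was 5.45%, and the share for other pairs of genes was not computed. The size of a difference between a pair depends on the probes and only its change between arrays can be read. It was looked at after the values were seen, so it has no test.

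**Figure D3:**
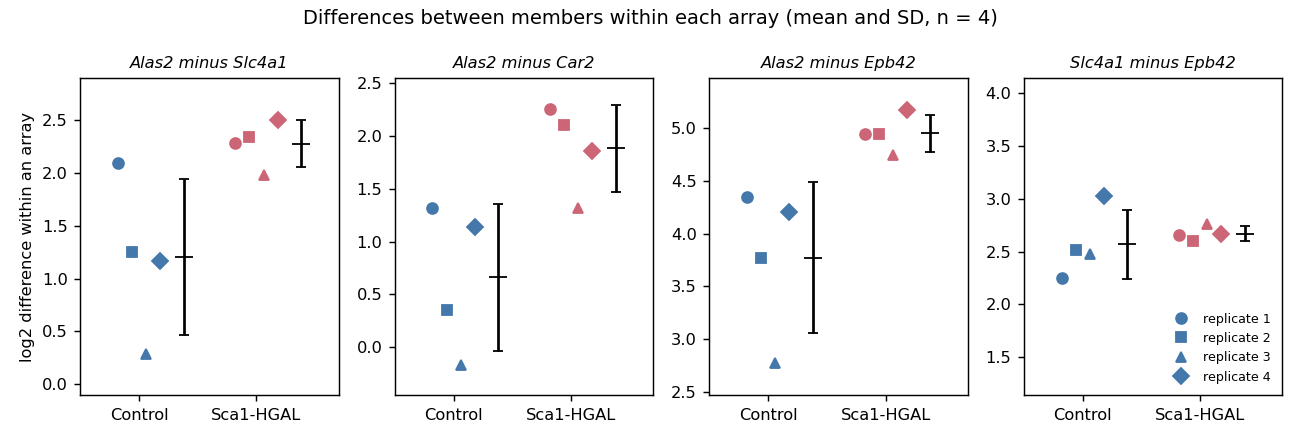
Difference in log2 level between pairs of genes within each array (vertical axis, each panel spanning 3 log2 units), with the mean and SD of 4 Control and 4 Sca1-HGAL arrays. Alas2 minus Epb42 lies at 4.74 or above on the Sca1-HGAL arrays and at 4.35 or below on the Control arrays, while Slc4a1 minus Epb42 overlaps between the groups.

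The genes most like Alas2 over the 8 arrays, among 15724 genes with a mean of at least log2 6, were Tent5c (r = 0.995, rho = 0.98), Ube2l6 (r = 0.99, rho = 1.00), Bpgm (r = 0.99, rho = 0.98), Mkrn1 (r = 0.97, rho = 0.98) and Gdpgp1 (r = 0.95, rho = 0.95). Bpgm encodes the red cell enzyme that makes bisphosphoglycerate, which lowers the oxygen affinity of haemoglobin. Tent5c encodes a poly(A) polymerase, Ube2l6 a ubiquitin-like conjugating enzyme and Mkrn1 a ubiquitin ligase. Bpgm was at 8.20, 7.87, 7.35 and 9.36 in Control and 9.11, 8.52, 8.54 and 8.96 in Sca1-HGAL on the log2 scale, and Tent5c at 10.03, 9.60, 8.94 and 11.31 and at 10.96, 10.44, 10.55 and 10.91. As with Alas2, Control replicate 3 was lowest, Control replicate 4 highest and the Sca1-HGAL arrays above the other Control arrays. Their log2 differences were 0.59 (SE 0.35) and 0.74 (SE 0.40), at limma adjusted p = 0.646 and 0.602. The likeness of these 5 genes to Alas2 did not rest on Control replicate 4, since r without it was 0.94 to 0.997.

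The genes most like Slc4a1, looked for after its pattern was seen, were Dhrs11 (r = 0.97), Trim10 (r = 0.97), Elmod3 (r = 0.97), Tmcc2 (r = 0.96) and Zswim1 (r = 0.96). Trim10 encodes a tripartite motif protein of erythroid cells. It was at 6.49, 6.44, 6.65 and 7.71 in Control and 6.78, 6.30, 6.62 and 6.70 in Sca1-HGAL, with Control replicate 4 far above the others. Without that array r was 0.78 for Trim10, 0.79 for Dhrs11 and 0.73 for Tmcc2. The genes most like Gata1 were Cdh20, Ttc19, Zfp212, Svep1 and Ppp1r1b, with r between 0.92 and 0.94, and 0 of them were on a red cell list.

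The genes most like the mean of all 7 were led by Elmod3 (r = 0.96), Inha (r = 0.95), Atp23 (r = 0.94), Zswim1 (r = 0.94) and Gemin8 (r = 0.93). Of the 15 most alike, 0 were on a list of red cell genes and their SD in Control ran from 0.07 for Lrwd1 to 0.61 for Spata13. The mean of all 7 weighs each gene alike, whatever its range.

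**Figure D4:**
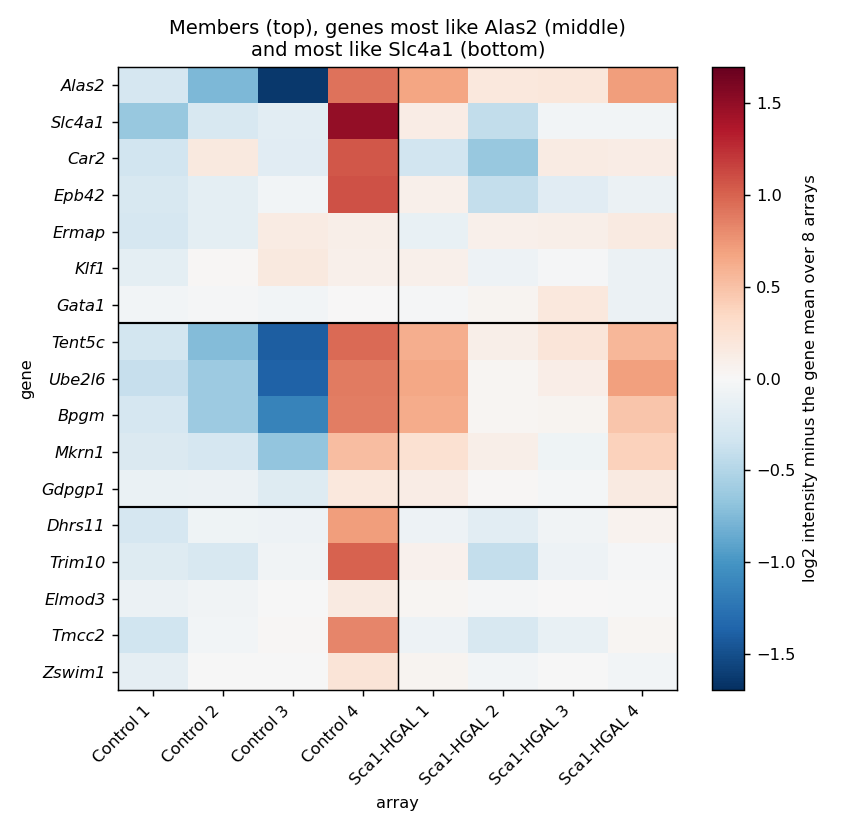
Log2 intensity minus the mean of each gene over the 8 arrays (colour), for the 7 red cell genes, the 5 genes most like Alas2 and the 5 most like Slc4a1. The Alas2-like genes are lowest on Control replicate 3 and highest on Control replicate 4, and the Slc4a1-like genes are highest on Control replicate 4.

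Other genes of haem synthesis and erythroid iron supply were compared over 20 of 22 listed genes. Control replicate 4 was the highest array for 8 of them, or 40.0%, against 9.06% of all probe sets. The lists were chosen with earlier results of these data known, and their genes share the same arrays. Such shares, here and for the lists below, are therefore a description and not counts of independent genes. Fech, which encodes ferrochelatase, the enzyme that inserts iron to finish haem, was at 9.08, 8.82, 8.41 and 10.23 in Control and 9.69, 9.19, 9.34 and 9.62 in Sca1-HGAL on the log2 scale. Its lowest and highest arrays were those of Alas2. Slc25a37, the mitochondrial iron importer of erythroid cells, was highest on Control replicate 4, by 0.45 over the mean of the other Control arrays. Not all genes of the list went this way. Cpox had its lowest level on that array, with a difference of -0.49 from the mean of the other Control arrays, and Alad had -0.22. Alas1, the form of the first enzyme used outside the red cell lineage, spanned 0.39 over the 8 arrays, against 2.57 for Alas2.

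In the test between the groups 0 of the 20 passed, with 6 differences above 0 and 14 below and a median of -0.03. Tfrc, the transferrin receptor that brings iron into erythroblasts and dividing lymphocytes, had a log2 difference of -0.34 (SE 0.10, limma adjusted p = 0.335), with the groups not overlapping. It was the sole gene of the list with an unadjusted p under 0.05. Alad, the second enzyme of haem synthesis, had 0.35 (SE 0.19), Cpox -0.22 (SE 0.12) and Ppox -0.15 (SE 0.08), at limma adjusted p = 0.610, 0.613 and 0.562. These are enzymes of later steps of the same path.

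Genes of the red cell membrane and skeleton were measured for 21 of 24. Control replicate 4 was the highest array for 13 of them, or 61.9%. Rhag, the Rh-associated glycoprotein, was there higher by 1.21 on the log2 scale than the mean of the other 3 Control arrays, Rhd by 0.75, the skeleton anchor Ank1 by 0.75, the blood group gene Kel by 0.66 and the beta-spectrin gene Sptb by 0.49. Other genes of the list did not go this way. Xk and Add1 had differences of -0.14 and -0.06 from that mean. Aqp1 was highest on Control replicate 2, and Cd59a and Stom on Sca1-HGAL replicate 1. In the test between the groups 0 passed, with 8 differences above 0 and 13 below and a median of -0.04. Kel had -0.29 (SE 0.18) and Tspo2, an erythroid membrane protein, 0.28 (SE 0.15), at limma adjusted p = 0.653 and 0.582. Gypc and Slc14a1, the urea transporter, had -0.18 and -0.22.

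Red cell enzymes and maturation genes were measured for 22 of 23, and Control replicate 4 was highest for 17, or 77.3%. They included Ube2o, a ubiquitin ligase of reticulocytes, higher there by 1.25 than the mean of the other Control arrays, Isg20 by 1.01, Gclm by 0.96 and the peroxide scavenger Prdx2 by 0.72. In the test between the groups 0 passed, with 9 differences above 0, 13 below and a median of -0.05. Bach1, at -0.04 on Control replicate 4 from the mean of the other Control arrays, had a group difference of -0.12 (SE 0.06, limma adjusted p = 0.547). Its groups did not overlap, as for 5.45% of all probe sets. Car1, which lies near Car2 on chromosome 3 and encodes another red cell carbonic anhydrase, did not share the pattern of Car2. It was at 6.79, 7.46, 8.07 and 7.12 in Control and 7.84, 7.63, 7.36 and 8.06 in Sca1-HGAL, highest in Control replicate 3, and r with Car2 was -0.27 over the 8 arrays. Of a list of 15 carbonic anhydrase genes that holds Car1 and not Car2, 0 were highest on Control replicate 4 and 0 passed the test between the groups.

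Transcription factors and cofactors of the red cell lineage were measured for all 18 listed, and Control replicate 4 was highest for 2, E2f2 and Foxo3, or 11.1%. The mean log2 level of the 18 was also highest on that array, though by little, at 9.228 against 9.128 to 9.214 on the other arrays. Some of the 18, such as Ikzf1 and Bcl11a, also act in B cells. In the test between the groups 0 passed, with 11 differences above 0 and 7 below. Gfi1b, a repressor of red cell and platelet precursors, had 0.15 (SE 0.06, limma adjusted p = 0.449), and Gata2 0.12 (SE 0.06, adjusted p = 0.580). Of 11 erythropoietin signalling genes 2 were highest on Control replicate 4, Bcl2l1, the survival gene that erythropoietin maintains in late erythroblasts, and Epor, the erythropoietin receptor. Bcl2l1 was higher there by 0.86 than the mean of the other Control arrays and Epor by 0.21. Socs3, a brake on cytokine receptors, had a difference of 0.37 (SE 0.06, limma adjusted p = 0.111).

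The 4 embryonic or minor globin genes with a probe set of their own, Hba-x, Hbb-y, Hbb-bh1 and Hbb-bh2, were low, with mean levels between 5.12 and 7.07 in the groups, and 0 were highest on Control replicate 4. The adult globin genes were not analysed here.

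**Figure D5:**
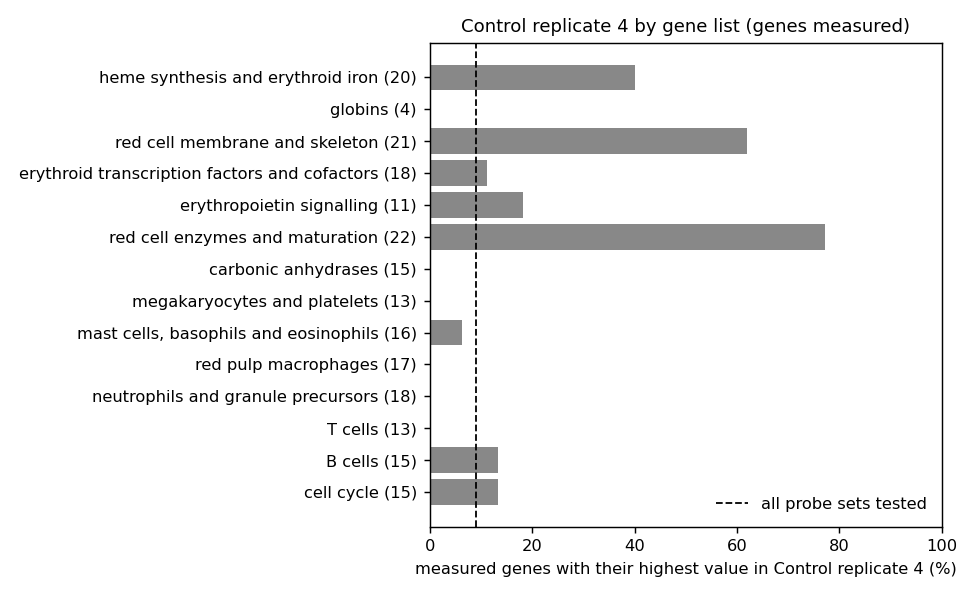
Share of the measured genes of each list (number in brackets) whose highest value over the 8 arrays was on Control replicate 4, with the dashed line at the share over all probe sets tested, 9.06%. The lists of red cell enzymes and maturation, of membrane and skeleton and of haem synthesis are at 77.3%, 61.9% and 40.0%, and lists of platelets, red pulp macrophages, neutrophils and T cells are at 0. The lists were chosen with earlier results of these data known, so the shares are a description.

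The mean level of the marker lists of other spleen cells was highest on an array other than Control replicate 4. The mean log2 level of 17 red pulp macrophage genes, the cells that take up old red cells, was 7.48 on that array, within 7.31 to 7.84 over the Control and 7.33 to 7.89 over the Sca1-HGAL arrays. Hmox1, which breaks down haem there, was at 8.28 on Control replicate 4, against 7.67 to 8.65 on the other Control arrays. Adgre1, which encodes the macrophage antigen F4/80, was at 7.83, 8.14, 7.54 and 7.63 in Control and 8.68, 9.36, 8.55 and 8.61 in Sca1-HGAL, so that the groups did not overlap (difference 1.01, SE 0.19, limma adjusted p = 0.122). The rest of that list did not share this difference. Of its 17 genes 8 had a difference above 0 and 9 below, with a median of -0.01, and Adgre1 alone had an unadjusted p under 0.05. The mean of 13 platelet and megakaryocyte genes was lowest on Control replicate 4, at 7.30 of a Control range of 7.30 to 7.66, with 7.504 to 8.005 in Sca1-HGAL. Of these 13 genes 11 had a difference above 0, and 0 had an unadjusted p under 0.05 in limma. The mean of 16 mast cell, basophil and eosinophil genes, cells that also use Gata1, ranged from 6.34 to 6.41 in Control and from 6.33 to 6.497 in Sca1-HGAL. Of these 16 genes 10 had a difference above 0. In limma 2 were higher in Sca1-HGAL at an unadjusted p under 0.05, and for 3 the groups did not overlap, against 5.45% of all probe sets. The neutrophil list (18 genes) ranged from 6.11 to 6.58 in Control and from 6.24 to 7.15 in Sca1-HGAL. All 18 differences were above 0, against 56.1% of all probe sets. In limma 7 were higher in Sca1-HGAL at an unadjusted p under 0.05, against 5.53% of all probe sets. These genes share the same arrays, so the counts are not of independent genes. The T cell list (13 genes) ranged from 7.72 to 8.03 in Control and from 7.40 to 8.29 in Sca1-HGAL. The cell cycle list (15 genes) was at 8.20 on Control replicate 4, in a Control range of 7.70 to 8.27 and a Sca1-HGAL range of 7.64 to 8.42. Of these lists 0 genes passed the test between the groups, and the part of other cells in the red cell values was not tested.

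Alas2 and Gata1 lie on the X chromosome, and Control replicates 2 and 4 were the arrays with high Xist. Alas2 was highest on Control replicate 4 and second lowest on Control replicate 2, so these arrays lay at opposite ends. Without both arrays, the log2 difference was 1.40 for Alas2 (limma adjusted p = 0.491), 0.32 for Slc4a1, 0.09 for Car2 and 0.010 for Epb42. The chromosomal neighbours of the 7 genes were also read. Apex2, next to Alas2, had a difference of 0.04 and r = 0.79 with Alas2, and Ubtf, next to Slc4a1, -0.03 and r = 0.06 with Slc4a1. Slc25a39, a mitochondrial glutathione carrier gene near Slc4a1, had 0.40 (SE 0.18, limma adjusted p = 0.520). Hdac6, next to Gata1, had -0.02, and Gcdh, next to Klf1, -0.10.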

How the data were processed

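Total RNA of 4 Control and 4 Sca1-HGAL samples was measured on Mouse Gene 1.0 ST arrays. The authors deposited intensity values from RMA (per the submitters' processing notes), a method with a background correction, quantile normalisation and a probe summary. Its version, and the build, were not given in the sources used here. RMA removes a change shared by most genes and shrinks the folds of dim probe sets. The deposited values were linear, from 4.94 to 24302, and their log2 was computed without a pseudocount.

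Of 34760 probe sets, the 21640 with 1 gene symbol were tested. The 1321 with several symbols, among them those of the adult globins, and the 11799 unlisted were left out. Groups and replicate numbers came from the titles. The test was that of limma 3.58.1 under R 4.3.3, lmFit with group alone followed by eBayes, two-sided, called at an adjusted p under 0.05 (Benjamini-Hochberg over all probe sets), and was checked on simulated data. The members, lists and rules were chosen with earlier results of these data known. The rule for naming genes gave all members, up to 4 genes per list by p and 2 by level, the 15 genes most like the members' mean z-score, and 5 most like Alas2 and Gata1. Not all genes that it gave are named here. Trim58, Bnip3l and Cat of the red cell enzymes and Mpp1 of the membrane list are among those left out. The 5 most like Slc4a1 and genes highest on Control replicate 4 were chosen after their values were seen. Fech, Alas1, Hmox1, Epor and the neighbours were added for their role or place, also with values in view. Correlations carry no test. 7 members gave 21 pairs, where the design had foreseen 28.

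The alternatives were other normalisations, a pseudocount of 16, a filter at a mean of log2 6, every deposited row, averaged probe sets per gene, array weights, a replicate block, a trended robust prior, an ordinary model, and leaving out each array or those with high Xist. Correlations without Control replicate 4 and with group means subtracted were added for the likeness of genes.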

Additional observations from a re-analysis of the deposited data

Results flagged for a closer look

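Of 96 sets of 4 log2 values (1 gene or list in 1 group), 10 held an array far from the other 3. Chance gives about 1 in 20 where sets are independent, and these are not, since they share arrays and many were picked for following the red cell genes. The values checked were those of the red cell genes, the list means and the genes most like the members. Control replicate 4 was far above the other Control arrays for Epb42 (7.79, next 6.66), the mean of the 7 genes (8.81, next 7.96), the list of red cell enzymes and maturation (9.20, next 8.65), Trim10 (7.71, next 6.65) and Oas1f (6.61). Sca1-HGAL replicate 2 was far below its group for the mean of the 7 genes (7.96, next 8.18) and for Atp23 (8.20). Sca1-HGAL replicate 4 was far above for the platelet list (8.005, next 7.585), Sca1-HGAL replicate 1 for the cell cycle list (8.42), and Control replicate 1 far below for Cdh20 (6.26).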

How the results depend on the processing

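The count of the 7 red cell genes called was 0 in limma and in all 19 alternatives, with 0 at an unadjusted p under 0.05 in limma and 1, Alas2, in 3 alternatives (the replicate block, without the arrays with high Xist and without Control replicate 4). The count over all probe sets was 1, and became 2 with averaged probe sets per gene, 12 with array weights, 6 with the replicate block, 2 without the arrays with high Xist and 0 with an ordinary model (1893 at an unadjusted p under 0.05). Leaving out each array gave 1 to 40, with 40 without Sca1-HGAL replicate 3. The number of the 7 with a positive difference, 3, was 6 without the arrays with high Xist and 3 to 5 with an array left out. Without the arrays with high Xist the differences of Slc4a1, Car2 and Epb42 turned to 0.32, 0.0917 and 0.010. With an array left out that of Slc4a1 ranged from -0.44 to 0.27 and that of Epb42 from -0.44 to 0.012, positive only without Control replicate 4 for both. In the same fits Alas2 ranged from 0.48 to 1.33 and the median of the 7 from -0.12 to 0.06. Over all alternatives the positive pairs numbered 16 to 20. The causes were not tested. Arrays of the same replicate number did not deviate together (correlations of their deviations -0.16, 0.05, -0.13 and -0.01), so the numbers were not used as pairs. The values carry no detection call, so signal over background could not be judged for a single gene.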
